A study of Mus musculus with 4 samples.

Results

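The Cdk inhibitor genes are the 7 mouse genes Cdkn1a, Cdkn1b, Cdkn1c, Cdkn2a, Cdkn2b, Cdkn2c and Cdkn2d. They were read by 9 probe sets that the platform annotation assigns to exactly 1 of these symbols, out of 45037 probe sets and 18193 genes on the array. Each of the 9 carried an Entrez identifier whose RefSeq symbol was the same. Messenger RNA was measured on 4 single-colour Affymetrix mouse arrays of cultured bronchoalveolar stem cells (BASCs), cells of the mouse lung that were sorted as CD31neg, CD45neg, CD34pos and Sca-1pos and plated on irradiated mouse embryonic fibroblasts. The study also describes later culture on collagen without such feeder cells, and which of these conditions the arrays sampled is not stated. The mice were ICR and aged 4 to 6 weeks. The arrays labelled control numbered 2. The other 2 were labelled Myc-depleted, and the treatment text in the labels describes BASCs given a lentiviral short hairpin RNA against c-Myc and kept under puromycin until stable lines formed. The study calls the array controls wild type. The sources used here do not state which hairpin was on the arrays, or whether these controls had received a control virus or puromycin, so effects of infection and selection cannot be told apart from those of Myc loss. The labels do not tie the arrays to separate cultures, so each p-value and interval below rests on array-to-array spread that may be technical.

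Cdk inhibitors hold back the cyclin-dependent kinases that drive a cell from G1 into S phase. The Cip/Kip members p21 (Cdkn1a), p27 (Cdkn1b) and p57 (Cdkn1c) bind cyclin-Cdk complexes, chiefly those of Cdk2. The Ink4 members p16 (Cdkn2a), p15 (Cdkn2b), p18 (Cdkn2c) and p19 (Cdkn2d) bind Cdk4 and Cdk6 and keep cyclin D away from them. Cdkn2a also encodes Arf, which restrains Mdm2 and so stabilizes p53. Myc is known to repress Cdkn1a and Cdkn2b through the zinc finger factor Miz1, encoded by Zbtb17, at their core promoters, whereas Myc with its partner Max activates genes through the E-box CACGTG. The comparison of Myc-depleted with control arrays therefore asked how the messenger RNAs of this brake stood in BASCs with less Myc.

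The promoter sequences of 4 members are shown because Myc and Miz1 are known to act at the core promoters of Cdkn1a and Cdkn2b, and because Cdkn1b and Cdkn2c were the members whose tested probe sets separated the groups on the arrays. Each run is the 250 bases before a RefSeq start in mouse build GRCm38.p6, read 5′ to 3′ on the strand of the gene, and capitals mark the GC box GGGCGG on either strand, the core of the motif bound by Sp1 and related factors.
Cdkn1a, chr17:29093519-29093768, plus strand: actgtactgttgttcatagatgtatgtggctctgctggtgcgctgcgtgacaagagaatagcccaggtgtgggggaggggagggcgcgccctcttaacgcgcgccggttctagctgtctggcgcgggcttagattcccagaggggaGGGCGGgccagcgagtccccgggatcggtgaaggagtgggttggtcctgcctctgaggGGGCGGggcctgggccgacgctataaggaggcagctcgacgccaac
Cdkn2b, chr4:89311033-89311282, minus strand: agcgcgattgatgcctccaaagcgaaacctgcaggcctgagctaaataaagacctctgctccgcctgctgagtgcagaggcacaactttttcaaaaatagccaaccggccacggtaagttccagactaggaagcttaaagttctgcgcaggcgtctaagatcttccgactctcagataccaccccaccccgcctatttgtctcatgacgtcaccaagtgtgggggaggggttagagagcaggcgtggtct
Cdkn1b, chr6:134920151-134920400, plus strand: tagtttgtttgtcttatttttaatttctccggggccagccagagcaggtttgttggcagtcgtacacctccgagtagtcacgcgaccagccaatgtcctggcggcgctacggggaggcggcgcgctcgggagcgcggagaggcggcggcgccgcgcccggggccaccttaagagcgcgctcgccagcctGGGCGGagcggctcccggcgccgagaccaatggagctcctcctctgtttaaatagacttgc
Cdkn2c, chr4:109666757-109667006, minus strand: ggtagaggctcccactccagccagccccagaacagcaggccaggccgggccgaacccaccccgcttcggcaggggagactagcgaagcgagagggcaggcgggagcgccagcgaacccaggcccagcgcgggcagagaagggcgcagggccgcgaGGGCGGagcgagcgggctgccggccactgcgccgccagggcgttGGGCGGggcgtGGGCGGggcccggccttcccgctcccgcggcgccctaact

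The Cdkn1a window held 2 GC boxes and 1 TATAA, with a GC content of 64.8%. The Cdkn2b window held 0 GC boxes at 53.6% GC. The Cdkn1b window held 1 GC box and 2 copies of CCAAT at 64.4% GC, and the Cdkn2c window held 3 GC boxes at 77.2% GC. Promoter entries were found for 6 of the 7 members, with 9 start windows in all, since Cdkn1a, Cdkn2a and Cdkn2c had 2 starts each. Of the 2 windows of Cdkn1a and of Cdkn2c, the one printed was chosen because it held GC boxes, and the other held 0. Cdkn1c had no entry. The letters CACGTG were in 0 of the 9 windows, and 6.02% of all 32851 RefSeq windows of the same length held them. GGGCGG was in 5 of the 9, against 32.7% of all windows, whose median GC content was 52.4%. CCAAT was in 2 of the 9, against 33.8%, and TATAA in 2 of the 9, against 22.8%. Both strands were searched for each motif, and none of these strings contains another. The matches are descriptions of letters and not sites of binding, which was not measured here.

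All levels are deposited log2 expression values of single probe sets, and differences are Myc-depleted minus control. Levels of different probe sets are not set against each other, because the brightness of a probe set depends on its probes. The spread of a group is that of its 2 arrays. Probe sets with a mean over the 4 arrays under log2 5.08, the 40th percentile, were not tested, which left 27022 probe sets and 12589 genes. Tests were limma's moderated test with Benjamini-Hochberg adjustment over the 27022.

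The arrays differed in ways that the groups do not explain. The poly-A spike-ins, RNAs that the array protocol adds before labelling, have probe sets at either end, and their 3′ minus 5′ difference grows where fewer labelled copies reach the 5′ end. It was 1.62 on control array 1, 3.01 on control array 2, 3.67 on Myc-depleted array 1 and 1.50 on Myc-depleted array 2. Control 1 and Myc-depleted 2 were thus the low arrays, and control 2 and Myc-depleted 1 the high ones. Each group held 1 array of each kind, so every comparison could also be read within the low pair and within the high pair. The high pair was not closely matched. For actin the 3′ minus 5′ difference was 1.36 on control 2 and 1.95 on Myc-depleted 1, against 0.60 on control 1 and 0.69 on Myc-depleted 2. Differences within the high pair therefore cannot be told apart from this gap. Cd34, on which the cells were sorted as positive, was near background and lay at 3.85 and 3.97 on control arrays and 3.66 and 3.76 on Myc-depleted arrays, and the probe sets of the BASC markers Sftpc and Scgb1a1 were under the filter, as were those of the lung epithelial genes Nkx2-1 and Cdh1. Pecam1 (CD31) and Ptprc (CD45), which the sort selected against, were under it too. Of 9 alveolar type II markers 4 had a tested probe set, and of 8 club cell markers 3 did. Of 8 general epithelial markers 2 were tested, and both had a positive difference. Epcam differed by 0.65 without overlap and Krt19 by 0.58 with overlapping groups, and neither was called. Of 15 fibroblast and mesenchyme markers 14 were tested, and Col1a2 had levels of 14.4, 14.6, 14.5 and 14.3 in the order control 1, control 2, Myc-depleted 1, Myc-depleted 2. Its 3 probe sets differed by -0.63 to -0.07 with overlapping groups. The list's median difference was -0.03, with 7 genes positive and 7 negative, and members lay far to either side. Thy1 differed by -1.26, Dcn by 0.67 and Pdgfra by 1.23, its 3 probe sets running from 1.01 to 1.23, all without overlap. In limma 4 of the 14 had an unadjusted p under 0.05, and the smallest adjusted p was 0.263. The part of fibroblast-like cells in any value below was not tested. In these bulk samples fewer cells of a type and less RNA per cell cannot be told apart.

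Myc itself had levels of 9.21 and 9.69 on the control arrays and of 8.35 and 8.50 on the Myc-depleted arrays. Both arrays labelled Myc-depleted lay below both control arrays. The difference was -1.02 (SE 0.21, n = 2 per group, 95% interval -1.59 to -0.45), which left 49.2% of the control level. The adjusted p in limma was 0.363. At an adjusted p under 0.05 limma called 0 of the 27022 probe sets, which is 0%, and the smallest adjusted p was 0.110. An unadjusted p under 0.05 was reached by 2726. With the spike-in value as a covariate, limma called 3171 of the 27022 probe sets and 0 of the 6 that read a Cdk inhibitor. A count over 6 probe sets is too small to set against the share of all probe sets. Myc was among the 3171 at a difference of -1.04 and an adjusted p of 0.0187. With the low pair and the high pair as a block instead, chosen after seeing the data, limma called 21. Myc then had an adjusted p of 0.106 in limma. Both fits leave fewer residual degrees of freedom than the main fit, so these calls are fragile.

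None of the 6 tested Cdk inhibitor probe sets, which read 5 of the 7 genes, passed the test in either direction. Cdkn1b 1434045_at and Cdkn2c lay above both control arrays on both Myc-depleted arrays, as did 22.5% of all tested probe sets, and their group means were about 1.2-fold apart. The dim second probe set of Cdkn1b, not tested, had the opposite sign, with both Myc-depleted arrays below both control arrays. Cdkn1a was lower in the mean, with overlapping groups, and Cdkn2b and Cdkn2d differed by less than the spread of their own groups. Cdkn1c and Cdkn2a were near background on every array. Adjusted p-values of the 6 in limma ran from 0.558 to 0.957, and 0 had an unadjusted p under 0.05.

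**Figure D1:**
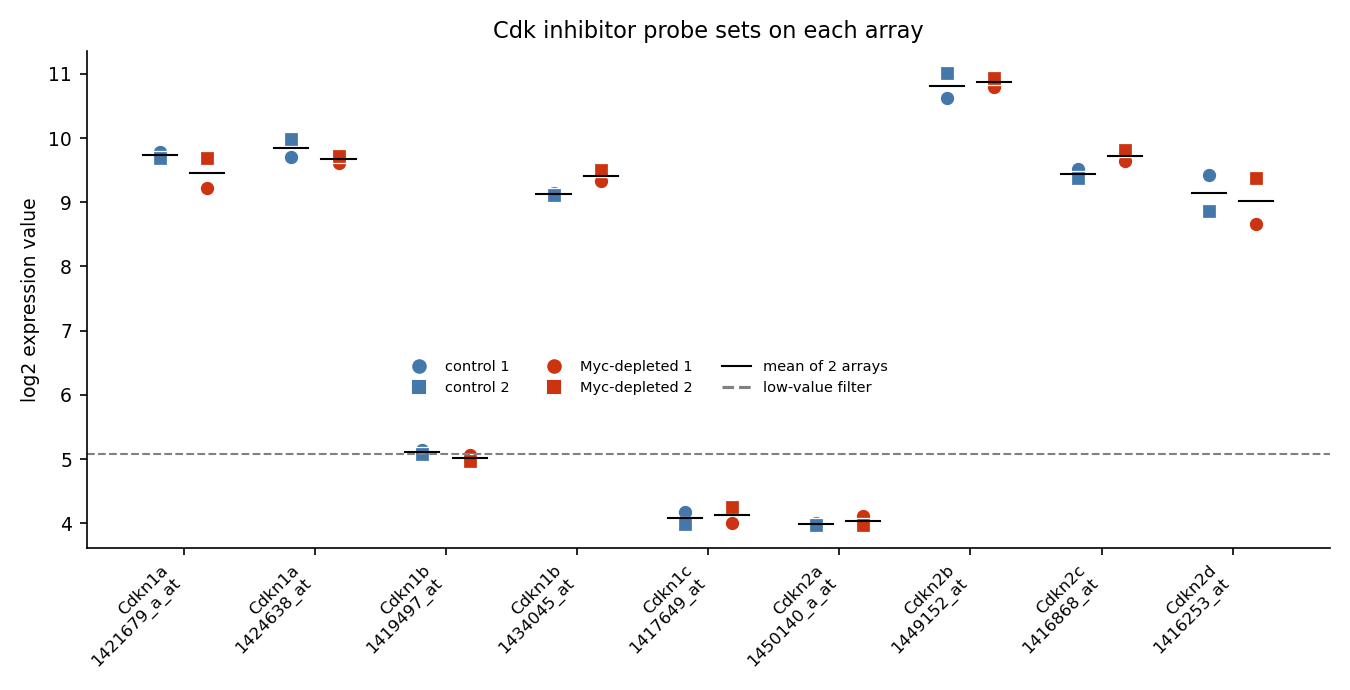
Log2 expression value (vertical axis) of each of the 9 Cdk inhibitor probe sets (horizontal axis) on the 2 control arrays (blue) and the 2 Myc-depleted arrays (red), with black bars for the mean of each group and a dashed line at the filter of 5.08. Cdkn1b 1434045_at and Cdkn2c 1416868_at have both red points above both blue ones, and Cdkn1c, Cdkn2a and Cdkn1b 1419497_at have means under the dashed line.

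Cdkn1a, the p21 inhibitor that p53 induces after DNA damage, was read by 2 tested probe sets. The first, 1421679_a_at, gave 9.79 and 9.68 on the control arrays and 9.22 and 9.68 on the Myc-depleted arrays. Myc-depleted 1 stood below the other 3 arrays, and Myc-depleted 2 lay between the control values. Its difference was -0.28 (SE 0.20, n = 2 per group, 95% interval -0.83 to 0.27, adjusted p 0.719 in limma). The second, 1424638_at, gave 9.70 and 9.99 on the control arrays and 9.61 and 9.72 on the Myc-depleted arrays. Here control 2 stood above the other 3 arrays and the groups again overlapped. Its difference was -0.18 (SE 0.15, n = 2 per group, 95% interval -0.60 to 0.25, adjusted p 0.782 in limma). The probe sets therefore shared the sign of the mean difference, but a different array set it in each. In the low pair the differences were -0.10 and 0.03, and in the high pair they were -0.46 and -0.38.

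Cdkn1b, the p27 inhibitor of Cdk2 complexes that is destroyed at the entry to S phase, was read by 1 tested probe set, 1434045_at. It gave 9.14 and 9.11 on the control arrays and 9.33 and 9.50 on the Myc-depleted arrays. The control arrays were close to each other and both Myc-depleted arrays lay above them. The difference was 0.29 (SE 0.13, n = 2 per group, 95% interval -0.06 to 0.64), the largest of the 6 in size, at 122% of the control level, with an unadjusted p of 0.0829 and an adjusted p of 0.558 in limma. It was 0.36 in the low pair and 0.21 in the high pair. A second Cdkn1b probe set, 1419497_at, had a mean of 5.06, just under the filter, and was not tested. It gave 5.14 and 5.09 on the control arrays and 5.07 and 4.97 on the Myc-depleted arrays, a difference of -0.09 of the opposite sign. Both Myc-depleted arrays thus lay below both control arrays in this dim probe set.

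Cdkn1c, the imprinted p57 inhibitor, gave 4.17 and 3.99 on the control arrays and 4.01 and 4.25 on the Myc-depleted arrays. Its mean difference of 0.05 was not tested, because all 4 values were under the filter. Of 7 imprinted and neighbouring genes around it that were tested, 6 had a negative and 1 a positive difference, 4 were lower without overlap, 0 were higher without overlap, and the median was -0.12. Over all 12589 genes tested, 20.8% were lower and 26.6% higher without overlap. Plagl1, a zinc finger gene that controls an imprinted network, differed by -0.54 without overlap. The growth factor gene Igf2 gave 6.49 and 5.70 on the control arrays and 5.68 and 5.55 on the Myc-depleted arrays. Its difference of -0.48 came mostly from control 1, and control 2 was only just above the Myc-depleted arrays. Kcnq1ot1, the non-coding RNA that silences Cdkn1c on the paternal chromosome, differed by -0.65 with overlapping groups. Its 3 tested probe sets ran from -0.65 to -0.42, all with overlapping groups. The flanking protein-coding genes Kcnq1 and Slc22a18 differed by -0.10 and -0.00. No gene of the list was called.

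Cdkn2a, which encodes p16 and Arf from separate starts, gave 4.00 and 3.97 on the control arrays and 4.11 and 3.97 on the Myc-depleted arrays with its only probe set. All 4 values were under the filter, and the difference of 0.06 was not tested. The 2 RefSeq transcripts were not told apart here. Its neighbour Cdkn2b, the p15 inhibitor induced by TGF-β signalling, was by contrast well over the filter. It gave 10.6 and 11.0 on the control arrays and 10.8 and 10.9 on the Myc-depleted arrays, with both Myc-depleted values between the controls. Its difference was 0.06 (SE 0.18, n = 2 per group, 95% interval -0.45 to 0.56, adjusted p 0.957 in limma). It was 0.33 in the low pair and -0.21 in the high pair, so the sign depended on which arrays were compared. In protein-coding gene order the locus reads Mtap, Cdkn2a, Cdkn2b, Dmrta1. Mtap, a gene of methionine salvage, was lower at -0.36 without overlap, and its 4 tested probe sets ran from -0.63 to -0.18. Dmrta1 was under the filter.

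Cdkn2c, the p18 inhibitor of Cdk4 and Cdk6, gave 9.52 and 9.37 on the control arrays and 9.64 and 9.82 on the Myc-depleted arrays. Both Myc-depleted arrays lay above both control arrays, Myc-depleted 1 by only 0.12 over control 1. The difference was 0.28 (SE 0.14, n = 2 per group, 95% interval -0.10 to 0.66), at 121% of the control level, with an unadjusted p of 0.107 and an adjusted p of 0.591 in limma. It was 0.30 in the low pair and 0.26 in the high pair.

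Cdkn2d, the p19 member of the Ink4 family, varied most among the tested members. It gave 9.43 and 8.87 on the control arrays and 8.66 and 9.38 on the Myc-depleted arrays. The high values were those of control 1 and Myc-depleted 2, the arrays with the low spike-in values, and the groups overlapped. The difference was -0.13 (SE 0.34, n = 2 per group, 95% interval -1.07 to 0.82, adjusted p 0.948 in limma). Within the low pair it was -0.05 and within the high pair -0.20. With the spike-in value as a covariate it was -0.03, with an SE of 0.10.

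**Figure D2:**
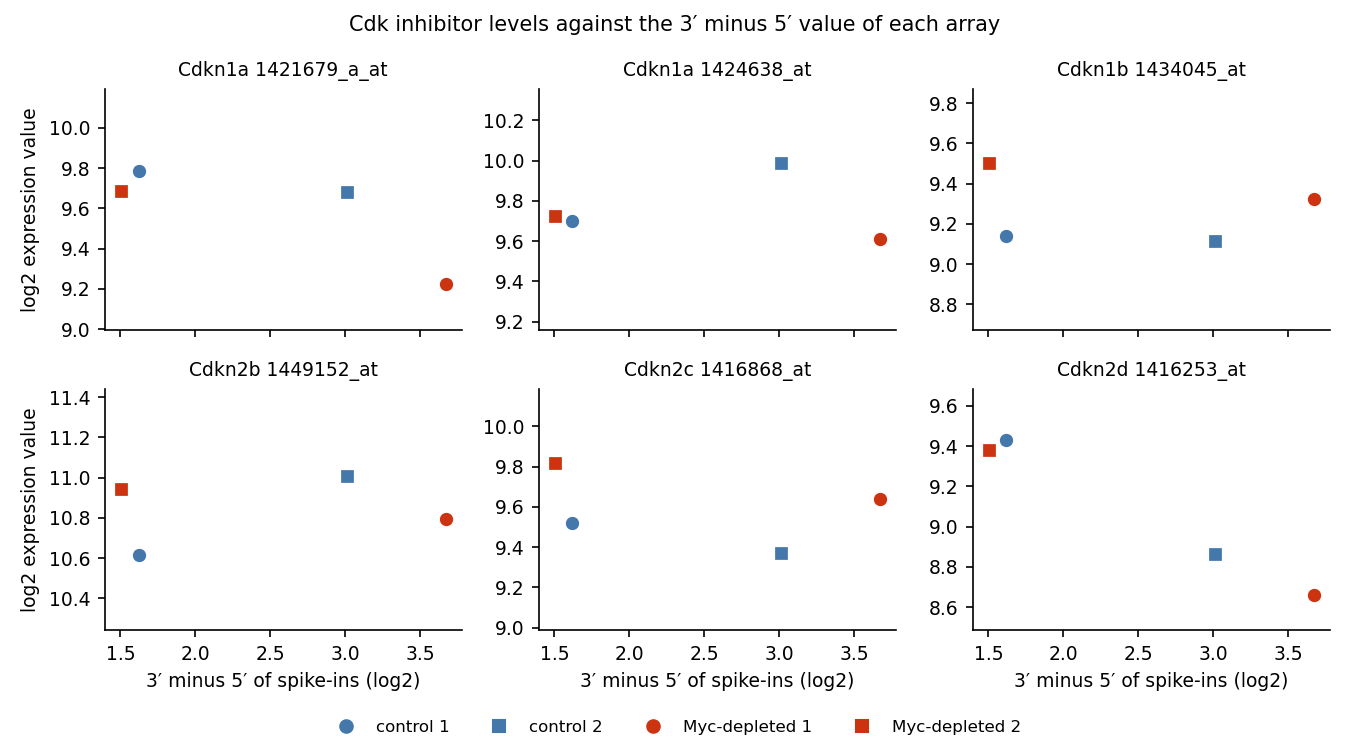
Log2 expression value of each tested Cdk inhibitor probe set (vertical axis, the same span of 1.2 log2 units in every panel) against the 3′ minus 5′ difference of the spike-ins on that array (horizontal axis, log2), with control arrays in blue and Myc-depleted arrays in red. Cdkn2d falls from 9.43 and 9.38 on the low arrays to 8.87 and 8.66 on the high arrays in both groups, whereas Cdkn1b and Cdkn2c have the red point above the blue one on either side.

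Over the 6 tested probe sets, 2 were higher on both Myc-depleted arrays and 0 were lower on both, against 22.5% and 18.5% of all tested probe sets. All 6 intervals of the difference contained 0. In all 6 a 2-fold rise lay above the upper bound, which ran from 1.19-fold for Cdkn1a 1424638_at to 1.76-fold for Cdkn2d. Since the spread may be technical, these bounds describe these arrays and may be too narrow for separate cultures. The lowest lower bound was 47.6% of the control level, for Cdkn2d. Differences at least as large as that of Cdkn1b, the largest of the 6, were found for 27.0% of all tested probe sets. At the threshold that the study used, an unadjusted p under 0.05 together with a fold above 2, the limma fit held 316 probe sets, 1.17% of those tested, and 0 of them read a Cdk inhibitor. The unmoderated test that the methods name gave 207 at that threshold, again with 0 Cdk inhibitors. A p that misses the threshold does not show that a level was the same. These intervals leave room for rises of the size seen for Cdkn1b and Cdkn2c, except those of Cdkn1a. Its upper bounds, 0.27 for 1421679_a_at and 0.25 for 1424638_at, lay just below these rises.

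**Figure D3:**
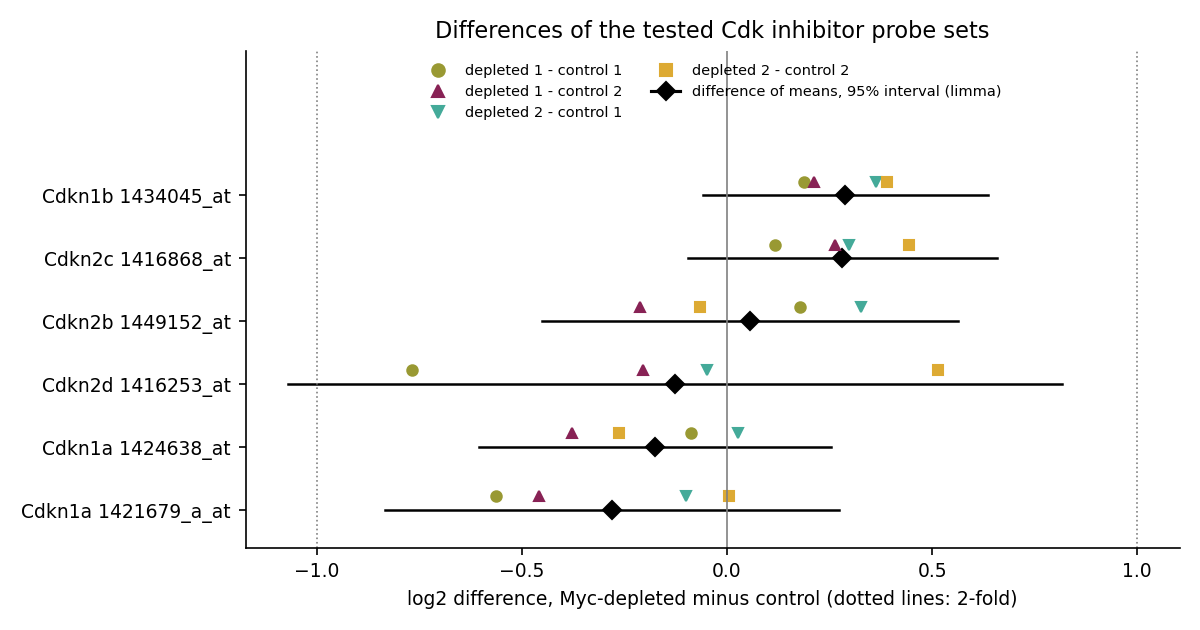
Log2 difference, Myc-depleted minus control (horizontal axis), of the 6 tested Cdk inhibitor probe sets (vertical axis), with diamonds for the difference of group means, black lines for limma's 95% intervals, and coloured points for the 4 comparisons of single arrays. All 4 single comparisons are above 0 for Cdkn1b and Cdkn2c, while those of Cdkn2d run from -0.77 to 0.51.

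The genes around the inhibitors were read from lists, with 1 probe set per gene, and no gene of any list was called. The shares of all genes without overlap, 26.6% higher and 20.8% lower, apply to each list, and the median difference over all genes was 0.02. The targets of the inhibitors came first. Of 14 G1 and S phase cyclins and Cdks tested, 4 had a positive and 10 a negative difference, 1 was higher and 4 were lower without overlap, and the median was -0.09. Cyclin E2 (Ccne2), which activates Cdk2, was at 9.97 and 9.75 on the control arrays and 9.10 and 9.22 on the Myc-depleted arrays, a difference of -0.70 with an adjusted p of 0.358 in limma. Cyclin A2 (Ccna2), the S phase partner of Cdk2, differed by -0.47, and by -0.73 in its second probe set. Cdc25a, the phosphatase that activates Cdk2, differed by -0.38. Cdk2 itself differed by 0.26 and stood higher on both Myc-depleted arrays. Cdk4 and Cdk6, the partners of the Ink4 proteins, differed by 0.10 and -0.08 with overlapping groups in their brightest probe sets. The 3 tested probe sets of Cdk4 ran from 0.08 to 0.15, and 1 was higher without overlap. The 2 of Cdk6 ran from -0.19 to -0.08, and 1 was lower without overlap.

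Of 13 pocket proteins and E2f and Dp factors tested, the layer that Cdks switch on, 4 had a positive and 9 a negative difference, 3 were higher and 6 lower without overlap, and the median was -0.09. Rbl2 (p130), the pocket protein of resting cells, gave 8.37 and 8.33 on the control arrays and 8.80 and 8.72 on the Myc-depleted arrays, a difference of 0.41, and 0.28 in its second probe set. Rbl1 (p107), the pocket protein of cycling cells, differed by -0.45, and by -0.21 with overlapping groups in its second tested probe set. The repressor E2f8 differed by -0.55 and Tfdp1, a dimer partner of the E2f proteins, by -0.32. Rb1 differed by -0.07 with overlapping groups.

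A further list held 14 tested genes for ubiquitin ligases that remove the inhibitors and for cofactors and regulators of these ligases. Their roles differ, so the counts describe the list only. Of the 14, 6 had a positive and 8 a negative difference, and the median was -0.06. Without overlap 1 was higher and 6 were lower. Skp2, the receptor that marks p27 for destruction, was at 9.12 and 8.95 on the control arrays and 8.54 and 8.82 on the Myc-depleted arrays. It differed by -0.36, and its 6 tested probe sets ran from -0.73 to -0.32, of which 3 did not overlap between groups. Dtl and Pcna, which act together on p21 in S phase, differed by -0.50 and -0.47, and the scaffold Cul1 by -0.23. The 5 tested probe sets of Dtl ran from -0.50 to -0.21, all lower without overlap. Protein levels were not measured on these arrays.

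Of 13 activators and corepressors of the Cip/Kip genes and Cdkn2b, 7 had a positive and 6 a negative difference, 5 were higher and 2 lower without overlap, and the median was 0.09. Foxo3, a known activator of Cdkn1b, was at 8.60 and 8.98 on the control arrays and 9.42 and 9.21 on the Myc-depleted arrays, a difference of 0.52, and 0.49 in its second probe set. Klf4, a known activator of Cdkn1a, differed by 0.40, and by 0.36 in its second probe set. Klf6, of the same list, went the other way at -0.37 with overlapping groups, and its 5 tested probe sets ran from -0.92 to -0.17. Foxo1 differed by 0.21, although its 3 tested probe sets ran from -0.08 to 0.21. Smad2, which carries the TGF-β signal, gave opposite signs, -0.27 and 0.36, in its 2 probe sets. Zbtb17, the Miz1 gene, differed by -0.00 and by 0.21 in its 2 probe sets, and Max by -0.12.

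Of 20 Polycomb genes and other regulators of the Cdkn2a and Cdkn2b locus, 10 had a positive and 10 a negative difference, 3 were higher and 7 lower without overlap, and the median was -0.01. Ezh2, the methyltransferase that deposits the silencing mark on histone H3, was at 10.4 and 10.3 on the control arrays and 9.96 and 9.88 on the Myc-depleted arrays, a difference of -0.42. Its partner Eed differed by -0.26. Another partner, Suz12, differed by -0.42, and the 6 tested probe sets of Suz12 ran from -0.60 to 0.03. Phc2, of the other Polycomb complex, differed by -0.48. Ezh1, the second methyltransferase, differed by 0.32, but by -0.19 in another probe set. The activator Ets1 differed by -0.30, and its 4 tested probe sets ran from -0.61 to -0.30. Bmi1, the best known repressor of Cdkn2a, differed by 0.02 and 0.23 in its 2 probe sets.

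Of 25 p53 target genes other than Cdkn1a, 11 had a positive and 14 a negative difference, 6 were higher and 6 lower without overlap, and the median was -0.09. Sesn1, a stress-induced regulator of growth signalling, was at 8.29 and 8.49 on the control arrays and 9.17 and 9.16 on the Myc-depleted arrays. It differed by 0.77, and its 3 tested probe sets ran from 0.77 to 0.91. The kinase Plk2 differed by -0.91. The cell death gene Pmaip1 differed by -0.98, at 5.89 and 5.36 on the control arrays and 4.78 and 4.52 on the Myc-depleted arrays. Both Myc-depleted values of Pmaip1 were under the filter of 5.08, so it was tested only because of its control values. Ppm1d, a phosphatase that switches the response off, differed by 0.37 and by -0.27 in its 2 probe sets. Known targets of p53 thus lay on either side of 0, as did the list. Among 6 partners of Arf and p53, 2 had a positive and 4 a negative difference, 1 was higher and 1 lower without overlap, and the median was -0.08. Npm1, the nucleolar protein that holds Arf, differed by -0.46, and by -0.23 in its second probe set. Among 8 other inhibitors and binding partners of Cdks, 3 had a positive and 5 a negative difference, 2 were higher and 1 lower without overlap, and the median was -0.05. Pkmyt1, a kinase that inhibits Cdk1, differed by -0.39, and by -0.05 in its second probe set. Hexim1, an inhibitor of Cdk9, differed by 0.28 and 0.46 in its 2 probe sets.

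Proliferation genes gave the other end of the pathway. All 22 tested had a negative difference, 16 were lower and 0 higher without overlap, and the median was -0.57, although none was called. Mybl2, a regulator of mitotic genes, was at 6.05 and 6.17 on the control arrays and 4.91 and 5.29 on the Myc-depleted arrays, a difference of -1.01, and -0.30 in its second probe set. The checkpoint kinase gene Bub1 differed by -0.92 and Top2a, the topoisomerase of dividing cells, by -0.68. The adjusted p of Mybl2 and of Bub1 was 0.340 in limma. Within single comparisons the list's median was -0.48 in the low pair and -0.59 in the high pair. The proliferation list was chosen with its lower levels in these data known, so its direction is not independent evidence.

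**Figure D4:**
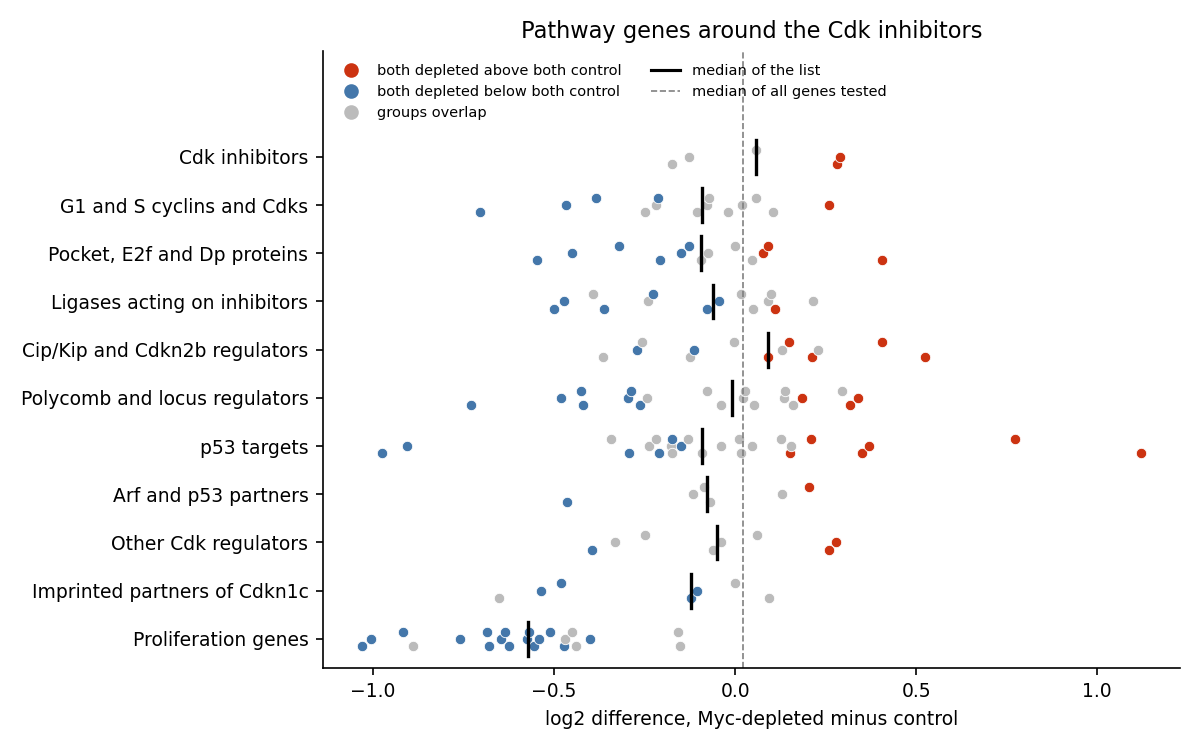
Log2 difference, Myc-depleted minus control (horizontal axis), of every tested gene of 11 lists (vertical axis), 1 point per gene, red where both Myc-depleted arrays were above both control arrays, blue where both were below, grey where the groups overlapped. Black bars mark the median of each list and the dashed line the median of all genes tested, 0.02. The proliferation genes all lie below 0 with a median of -0.57, while the 5 tested Cdk inhibitors lie between -0.18 and 0.29.

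The genes whose profile over the 4 arrays was nearest to that of a member were found by the Euclidean distance between log2 values centred on their mean, among 12588 genes. Nearest to Cdkn1b 1434045_at, the member with the largest positive difference, were Smim14, Cpt1a, Srp14, Dohh and Oaz1, at distances of 0.0242 to 0.0271. Within a distance of 0.15 there were 590 genes. Nearest to Cdkn1a 1421679_a_at, the member with the largest negative difference, were Smndc1, Bnip1, Aqr, Tecr and Exosc3, at 0.0238 to 0.0493, and 216 genes lay within 0.15. With 4 arrays, many genes share such a profile.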

How the data were processed

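The 4 arrays were read in 1 colour from biotin-labelled RNA. According to their methods, the authors used Partek Genomics Suite 6.4 with Robust Multichip Average normalization, while the submitters' processing notes name GCRMA. Which of them made the deposited log2 values was not settled, and it matters most for dim probe sets. The genome build was not given in the sources used here. Of 45101 probe sets, 64 control probe sets were left out. Members were the probe sets with exactly 1 member symbol. Group differences in the deposited values were fitted by lmFit and eBayes (limma 3.58.1, R 4.3.3), with 2 residual degrees of freedom and a prior of 2.02. The script was checked on data with known changes. For lists, the brightest tested probe set stood for each gene, and promoters came from a RefSeq table. Named were Myc, every member, up to 4 genes per list with the smallest p, and genes that bear on a member. Exceptions, chosen after their values were seen, were Cdk4, Cdk6, Rb1, Zbtb17, Max, Klf6, Eed, Suz12 and Bmi1. Col1a2 and the marker genes under the filter were also named outside this rule. The members and lists were chosen with earlier results of these data known. Alternatives covered the filter, scaling, floor, variance model, test, threshold, probe set per gene, blocks, the spike-in covariate and each array left out. The number of arrays limits the precision.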

Additional observations from a re-analysis of the deposited data

How the results depend on the processing

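No Cdk inhibitor probe set was called under any alternative run. Over all probe sets, limma called 0 at an adjusted p under 0.05 as reported, and also without a filter, with the stricter filter, with either other scaling, with the floor, with an intensity trend, by the methods' ANOVA after adjustment, and with any 1 array left out. With the unadjusted threshold and a fold above 2, limma gave 316 and the methods' ANOVA gave 207. With the spike-in value as a covariate limma called 3171 of 27022, Myc among them at an adjusted p of 0.0187. Among the inhibitors Cdkn2c then had an adjusted p of 0.0980 and Cdkn1b of 0.102 in limma. The replicate number as a block gave 0 calls. Arrays of the same number deviated in opposite directions (correlation -0.77 over 27022 probe sets), and the crossed pairing, an alternative chosen after seeing the data, gave 21. Myc was not among these 21, at an adjusted p of 0.106 in limma. Of the inhibitors, Cdkn2b changed sign to -0.14 without control replicate 1 and to -0.02 without Myc-depleted replicate 2, and Cdkn2d to 0.16 without control replicate 1 and 0.23 without Myc-depleted replicate 1. Their highest and lowest values were 0.25 without control replicate 2 for Cdkn2b and -0.49 without Myc-depleted replicate 2 for Cdkn2d. Cdkn1b ran from 0.20 to 0.38 and Cdkn2c from 0.19 to 0.37 with 1 array left out; Cdkn1a 1421679_a_at ran from -0.51 without Myc-depleted replicate 2 to -0.049 without Myc-depleted replicate 1. Where 1 array remained in a group, it was assumed to vary like the other group.

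The list medians were recomputed under alternatives added after the data were seen. With 1 array left out they ran from -0.19 to -0.00077 for the G1 and S phase cyclins and Cdks, from -0.14 to -0.065 for the pocket proteins and E2f factors, from -0.14 to -0.060 for the ubiquitin ligases, from 0.018 to 0.14 for the activators and corepressors, from -0.13 to 0.068 for the Polycomb list, from -0.080 to -0.0045 for the p53 targets, from -0.23 to 0.047 for the partners of Arf and p53, from -0.13 to 0.042 for the other Cdk partners, from -0.17 to -0.073 for the imprinted genes and from -0.78 to -0.40 for the proliferation genes. The Polycomb median was 0.068 without Myc-depleted replicate 2. That of the partners of Arf and p53 was 0.031 without control replicate 2 and 0.047 without Myc-depleted replicate 2. That of the other Cdk partners was 0.0085 without control replicate 1 and 0.042 without Myc-depleted replicate 1. The spike-in covariate moved the p53 targets to -0.060, and the stricter filter, which tests fewer genes, moved the ubiquitin ligases to -0.077 and the imprinted genes to -0.33. The cause of the other shifts was not tested. Levels near background limit Cdkn1c, Cdkn2a and Cdkn1b 1419497_at.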
